A study of Homo sapiens with 6 samples.

Results

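MicroRNA host genes are long non-coding RNAs from whose transcripts, or from whose introns, microRNA hairpins are cut. They were taken here as the genes whose symbol starts with MIR and ends in HG, and those with over 3 counts in any library are described. Of 59653 genes in the table, 69 had such a symbol and 39 of these passed the minimum. A further 18 were at 0 in every library and 12 reached 1 to 3 counts at most. Just inside the minimum, MIR2117HG, MIR3150BHG and MIR4432HG reached 4 counts, and just outside it, MIR200CHG, MIR497HG and MIR583HG reached 3. All 39 are annotated as lncRNA in GENCODE v44.

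The counts came from SK-OV3, a human ovarian cancer cell line labelled as wild type, which the study describes as lacking p53. Cells received either a pool of siRNAs against the lncRNA PVT1 (siPVT1) or a pool of non-targeting siRNAs (siControl), and RNA was taken 48 h later. There were 3 libraries per group. The study asked how lowering PVT1 changes the transcriptome of 1 cell line, and neither the labels nor the methods say whether libraries came from separate cultures, so p-values measure only the spread between these libraries, which may be technical.

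Library totals lay between 28383171 and 35059576 counts. PVT1 had 3280.2, 4178 and 3374 normalized counts in the siControl libraries (replicates 1, 2 and 3, the order used throughout) and 2334, 2111 and 2047 in siPVT1, so the groups did not overlap and about 59.9% remained (edgeR log2 fold change −0.74, standard error [SE] 0.102, adjusted p = 0.000465). Normalized counts are the deposited estimated counts divided by the relative library size after TMM scaling. Of 11 epithelial or SK-OV3 markers, 10 were detected at 1 CPM or more (counts scaled to a common library total). The sum of the 11 was 5613 to 5700 CPM in siControl and 6843 to 9055 CPM in siPVT1. Most of it was VIM, at 4590 to 4653 CPM and then 5703 to 7790 CPM. The others did not move together. KRT8, KRT18, KRT19, MSLN and PAX8 were higher in siPVT1, ERBB2 and WT1 lower, and CDH2, EPCAM and MUC1 overlapped between groups. Of 6 blood markers 1 was detected, and CD3E was at 0 in every library. The detected one, LYZ, was uneven, at 0.600, 8.67 and 0.155 CPM in siControl and 0.474, 2.66 and 0.371 CPM in siPVT1. All 4 endothelial markers were detected, with a sum of 68.5 to 73.6 CPM in siControl and 263 to 332 CPM in siPVT1, nearly all of it from CDH5. Of 5 fibroblast markers 2 were detected, and all 5 summed to 7.04 to 7.68 CPM in siControl and 24.2 to 25.8 CPM in siPVT1. Mitochondrial genes took 5.26% to 5.81% of the counts in siControl and 5.75% to 6.996% in siPVT1. The part of these shifts in the values that follow was not tested.

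As background, a microRNA hairpin is cut from the host transcript in the nucleus by DROSHA and DGCR8, exported by XPO5 and trimmed by DICER1 to a mature strand that an Argonaute protein carries to messenger RNAs. Target choice rests mainly on the seed, mature bases 2 to 8. The host level is therefore the amount of the precursor's parent transcript or of what is left of it after cutting, and not the amount of mature microRNA, which the poly(A)-selected libraries used here do not capture. In cancer, some of these microRNAs are known for restraining growth (the let-7 and miR-34 families) and others for promoting it (the cluster held by MIR17HG).

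On the strand of their host, the 39 genes held 64 annotated hairpins, of which 61 had a mature sequence in the RefSeq tables (GRCh38.p14). The mature sequences of the hosts that the results turn on are shown first, since the seed in capitals says which hosts could feed the same target choice. Hosts that rose held these.
hsa-miR-210-3p, in MIR210HG: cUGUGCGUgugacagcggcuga
hsa-miR-146a-5p, in MIR3142HG: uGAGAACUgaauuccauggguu
hsa-miR-3142, in MIR3142HG: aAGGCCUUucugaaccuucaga
hsa-miR-503-5p, in MIR503HG: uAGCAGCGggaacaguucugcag
hsa-miR-193b-3p, in MIR193BHG: aACUGGCCcucaaagucccgcu
hsa-miR-365a-3p, in MIR193BHG: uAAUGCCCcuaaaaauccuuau
hsa-miR-29b-3p, in MIR29B2CHG: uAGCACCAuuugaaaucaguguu
hsa-miR-29c-3p, in MIR29B2CHG: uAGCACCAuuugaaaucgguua
hsa-miR-600, in MIR600HG: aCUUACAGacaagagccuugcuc

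The cluster of MIR17HG, which fell, has 12 mature strands in the table. Of these, 1 strand of each hairpin is shown, in which miR-17 and miR-20a share a seed and miR-19a and miR-19b share another.
hsa-miR-17-5p: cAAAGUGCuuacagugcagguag
hsa-miR-20a-5p: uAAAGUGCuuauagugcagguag
hsa-miR-18a-5p: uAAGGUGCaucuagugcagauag
hsa-miR-19a-3p: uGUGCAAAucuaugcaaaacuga
hsa-miR-19b-3p: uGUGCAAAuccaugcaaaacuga
hsa-miR-92a-3p: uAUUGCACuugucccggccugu

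Among 80 seeds of 96 mature names, 6 occurred in more than 1 host. The let-7 seed was in 6 hosts, and MIR100HG and MIR99AHG had 3 shared seeds, those of let-7, of miR-99 and miR-100, and of miR-125b. These are printed so that the opposite movement of both hosts can be read against them.
hsa-let-7a-5p, in MIR100HG, MIRLET7A1HG and MIRLET7BHG: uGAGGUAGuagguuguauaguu
hsa-let-7c-5p, in MIR99AHG: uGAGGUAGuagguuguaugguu
hsa-let-7b-5p, in MIRLET7BHG: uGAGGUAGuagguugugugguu
hsa-miR-4458, in MIR4458HG: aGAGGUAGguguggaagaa
hsa-miR-100-5p, in MIR100HG: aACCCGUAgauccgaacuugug
hsa-miR-99a-5p, in MIR99AHG: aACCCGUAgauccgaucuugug
hsa-miR-125b-5p, in MIR100HG and MIR99AHG: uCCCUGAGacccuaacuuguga

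Among the host genes that entered the test, more were higher than lower in siPVT1. Those too low to be tested had fewer summed counts in siPVT1, except MIR4422HG. The 39 together took 424 to 470 CPM in siControl and 576 to 677 CPM in siPVT1. MIR100HG made up much of that rise, going from 2863, 2823 and 2914 raw counts to 8121, 7803 and 6620. Of the 29 that had 5 or more normalized counts in 3 or more libraries and so entered the test, 10 rose and 2 fell past both thresholds (edgeR quasi-likelihood test, Benjamini-Hochberg adjusted p under 0.05 and a log2 fold change of 1 or more in size). That is 41.4% of the 29, beside 21.4% of the 19008 genes tested, and 34.5% were higher beside 11.6% of all genes, while 6.90% were lower beside 9.86%. By the adjusted p alone, 15 were higher and 6 lower, or 72.4% beside 58.4% of all genes. The groups did not overlap for 23 of the 29, 15 with siPVT1 higher and 8 with siPVT1 lower, beside 66.3% of all genes (32.8% higher and 33.5% lower). The median log2 fold change of the 29 was 0.57 and that of all genes tested −0.01. With scaling by the total count, 8 host genes rose and 2 fell, and 43.8% in place of 54.0% of all called genes were higher. In bulk RNA, fewer cells that express a gene and less of its RNA per cell cannot be told apart.

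Other non-coding genes gave different counts. Of 345 tested LINC genes, 31 rose and 64 fell (27.5% in both directions, median log2 fold change −0.11), and of 26 tested small nucleolar RNA host genes, 1 rose and 8 fell (34.6%, median −0.39). A wider set held 1036 tested genes, among them LINC genes, whose symbol matched a lncRNA of GENCODE v44 other than the host genes. Of these, 112 rose and 181 fell (28.3%, median −0.15). Any lncRNA whose symbol did not match 1 gene of that release was left out. The differences between the host genes and these sets were not tested. Among the host genes, 3 of the 10 that rose (MIR378D2HG, MIR3681HG and MIR3936HG) passed the minimum on counts in siPVT1, with 0, 1 and 2 siControl libraries at 5 or more, so their place in the test rests on the counts that are high.

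**Figure D1:**
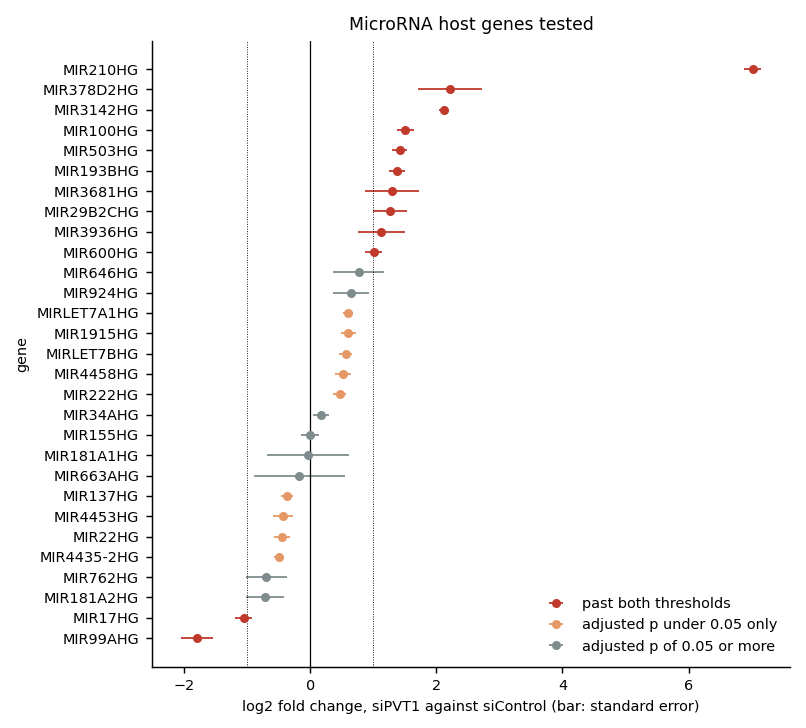
Log2 fold change, siPVT1 against siControl, of the 29 microRNA host genes tested (points, with bars of 1 standard error, from 3 libraries per group); dotted lines mark −1 and 1. MIR210HG stands at 7.02, past the next gene at 2.22, and MIR99AHG and MIR17HG are the 2 genes past the threshold on the lower side. The standard errors come from the test statistic and can understate counting error where a group is low.

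The largest change was in MIR210HG, host of miR-210, known as a microRNA that hypoxia induces. Its normalized counts were 5.68, 6.19 and 6.46 in siControl and 863, 813 and 746 in siPVT1. All siPVT1 libraries lay far above all siControl libraries, and the raw counts in siControl, 6, 6 and 7, lay above the 3 counts taken as the floor. The mean went from 6.11 ± 0.394 to 807 ± 58.7 (SD, n = 3). The log2 fold change was 7.02 (SE 0.139, adjusted p = 1.40e-07 in edgeR), with the fourth smallest p-value of all genes. That SE comes from the test statistic and is smaller than the counting error of 6, 6 and 7 raw counts. MIR210HG (ENSG00000247095) lies on the minus strand of chromosome 11 at 565657 to 568457 of GRCh38, and the MIR210 hairpin, at 568089 to 568198, is intronic in all 9 annotated transcripts. The hairpin's own entry had 1 count in 1 siPVT1 library and 0 in the others.

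The genes beside MIR210HG did not move to that extent. RASSF7, on the opposite strand 1631 bases away, had 72.0, 70.2 and 62.8 normalized counts in siControl and 180.3, 165 and 168 in siPVT1 (log2 fold change 1.32, SE 0.120, adjusted p = 5.03e-05 in edgeR). PHRF1, 8012 bases away on the other side, had means of 1631 ± 15.6 and 1443 ± 195 (SD, n = 3; log2 fold change −0.18, adjusted p = 0.146 in edgeR).

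The promoter of MIR210HG is shown because hypoxia-inducible factors are known to bind the letters ACGTG or GCGTG. The window, 250 bases before to 50 after the RefSeq start, is chr11:568408-568707 on the minus strand (GRCh38.p14), and the capitals mark 1 match to each motif, which begin at −170 and −9 relative to the start.
MIR210HG promoter: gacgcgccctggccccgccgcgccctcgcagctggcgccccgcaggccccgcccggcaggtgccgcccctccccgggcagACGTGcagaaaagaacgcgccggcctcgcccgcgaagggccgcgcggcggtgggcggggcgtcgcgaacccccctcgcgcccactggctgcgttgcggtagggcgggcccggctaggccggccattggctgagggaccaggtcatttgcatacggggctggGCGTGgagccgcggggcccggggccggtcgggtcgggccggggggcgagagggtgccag

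In 21 promoter windows of 11 hosts past both thresholds, ACGTG or its reverse complement was found in 4 and GCGTG in 4. MIR378D2HG, on chromosome 8, was not searched. MIR100HG and MIR99AHG had 6 windows each, some of them overlapping, so windows are not separate hosts. In 35116 promoter windows of the RefSeq table these shares were 21.4% and 36.5%. Apart from MIR210HG, both motifs were in MIR503HG, ACGTG alone in MIR600HG and in 1 window of MIR100HG, and GCGTG alone in MIR3142HG, with 2 matches, and MIR3936HG. CACGTG, which contains ACGTG, and TGANTCA, the letters read by AP-1 factors, were in none of the 21 and in 7.26% and 7.71% of all windows. A match is a description of letters and not of binding.

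MIR3142HG rose next by p-value among the hosts. It carries MIR146A, whose microRNA is known for feeding back on NF-kB signalling through TRAF6 and IRAK1, and the hairpin is exonic in both annotated transcripts. Normalized counts were 599.6, 569.5 and 612 in siControl and 2366, 2726 and 2625 in siPVT1. The groups lay far apart with little spread in either, and the log2 fold change was 2.11 (SE 0.0745, adjusted p = 1.01e-06 in edgeR), or 4.33 times. The gene spans 160438594 to 160487426 on the plus strand of chromosome 5. PTTG1, 9854 bases upstream on the same strand, was higher by 0.82 on the log2 scale (adjusted p = 3.73e-05 in edgeR), under the fold threshold.

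MIR503HG (chromosome X, 134543119 to 134546642, minus strand) holds miR-503, which is known to restrain cell cycle genes. It had 266, 263 and 256 normalized counts in siControl and 739, 785 and 579.96 in siPVT1. The siControl libraries were nearly equal, and siPVT1 replicate 3 lay below the other two. Its log2 fold change was 1.42 (SE 0.121, adjusted p = 3.81e-05 in edgeR). HPRT1 and PLAC1, the nearest protein-coding genes, had log2 fold changes of −0.05 and −0.29 and adjusted p of 0.6998 and 0.563 in edgeR.

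MIR193BHG (chromosome 16, 14301389 to 14331067, plus strand) holds miR-193b and miR-365a outside its annotated exons. Its counts after normalization were 155, 196 and 187 in siControl and 500.1, 495 and 404 in siPVT1, which did not overlap (log2 fold change 1.38, SE 0.128, adjusted p = 5.77e-05 in edgeR). Next to it, MRTFB had a log2 fold change of −0.18 (adjusted p = 0.0797 in edgeR) and PARN one of −0.49 (adjusted p = 0.000312).

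For a pair of hosts that rose, it is less certain whose reads were counted. MIR29B2CHG, which holds miR-29b and miR-29c, repressors of collagen messages, had 74.8, 119 and 73.8 normalized counts in siControl and 283, 204 and 153 in siPVT1. The groups did not overlap, though siControl replicate 2 lay high and siPVT1 replicate 3 low in their groups (log2 fold change 1.26, SE 0.268, adjusted p = 0.00426 in edgeR). It shares 797 exon bases with CD46 on the opposite strand, a gene that went from 9448 ± 137 to 22968 ± 3567 normalized counts (SD, n = 3; log2 fold change 1.28). The strand setting of the counting is not given in the sources used here. It is therefore not known whether reads of CD46 and of MIR29B2CHG in that stretch were kept apart. MIR600HG, with an exonic hairpin in both transcripts, had 101, 102 and 80.3 normalized counts in siControl and 205, 195 and 171 in siPVT1 (log2 fold change 1.005, SE 0.138, adjusted p = 0.000445 in edgeR). It lies just past the fold threshold and shares 254 exon bases on the same strand with STRBP, whose log2 fold change was 0.04.

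The other 3 hosts that rose were near the floor. MIR378D2HG had 2, 3 and 3 counts in siControl and 16, 6 and 14 in siPVT1, a ratio of 4.84 with a 95% counting interval of 2.21 to 12.0 from 8 against 36 counts (edgeR log2 fold change 2.22, SE 0.513, adjusted p = 0.00645). MIR3681HG had 5, 2 and 6 counts in siControl and 11, 10 and 9 in siPVT1 (log2 fold change 1.30, adjusted p = 0.0320 in edgeR). MIR3936HG had 4, 8 and 9 and then 16, 13 and 14 (log2 fold change 1.13, adjusted p = 0.0323 in edgeR). The groups did not overlap in any of the 3. For MIR378D2HG the minimum for testing fixed this in advance, since only siPVT1 libraries reached 5 normalized counts. The p-values of the 3 and the interval come after that selection, so they are descriptions and no separate support. MIR3681HG kept its call in 4 of 11 alternative analyses and MIR3936HG in 4 of 12. PDP1 overlaps MIR378D2HG on the opposite strand and rose (log2 fold change 1.57), as did LPIN1 and TRIB2, which flank MIR3681HG (1.88 and 1.45), and P4HA2, 15969 bases from MIR3936HG (1.85). SLC22A5 and SLC22A4 share 327 and 235 exon bases with MIR3936HG on the opposite strand, and had log2 fold changes of −0.76 (adjusted p = 0.000432 in edgeR) and 0.30 (adjusted p = 0.0761).

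**Figure D2:**
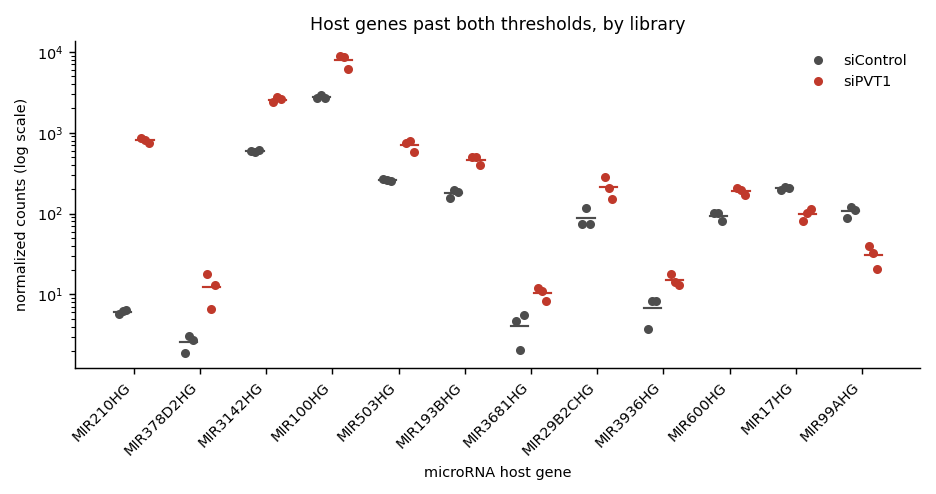
Normalized counts (log axis) of the 12 host genes past both thresholds in each of 3 siControl and 3 siPVT1 libraries; each point is a library, in the order of replicates 1 to 3, and each line a group mean. MIR210HG moves from 6.11 to 807, and MIR17HG and MIR99AHG are the 2 genes whose siPVT1 points lie below their siControl points.

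Around all 12 hosts, 25 of 30 neighbouring or overlapping protein-coding genes were tested, and 8 rose and 1 fell past both thresholds, where 11.6% and 9.86% of all genes did. The 1 that fell was CDH17, 210479 bases from MIR378D2HG, with a mean of 10.4 normalized counts in siControl and at most 1 count in a siPVT1 library.

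The hosts of let-7 seeds split. MIR100HG, the most counted of them, had 2712, 2913 and 2689 normalized counts in siControl and 8984, 8528 and 6173 in siPVT1. MIR99AHG, which holds the related set on chromosome 21, had 89.0, 122 and 112 and then 39.8, 32.8 and 20.5. MIR100HG thus rose (log2 fold change 1.51, SE 0.133, adjusted p = 4.47e-05 in edgeR) while MIR99AHG fell (log2 fold change −1.80, SE 0.253, adjusted p = 0.000502), with no overlap between groups in either. The counts of MIR100HG per count of MIR99AHG were 30.5, 23.9 and 24.1 in siControl and 226, 260.1 and 301 in siPVT1.

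A further 3 hosts of that seed passed the adjusted p and not the fold threshold, and all were higher in siPVT1. MIRLET7A1HG had 336, 324 and 305 normalized counts in siControl and 491, 503 and 476 in siPVT1 (log2 fold change 0.61, SE 0.0779, adjusted p = 0.000309 in edgeR). MIRLET7BHG had 188, 178 and 173 and then 274, 285 and 241 (0.57, SE 0.102, adjusted p = 0.00187). MIR4458HG had 72.9, 79.4 and 82.1 and then 106, 114 and 117 (0.52, SE 0.127, adjusted p = 0.00836). None of these overlapped between groups. MIR4500HG, the sixth, had 9 counts in all of siControl and 3 in siPVT1 and was not tested.

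**Figure D3:**
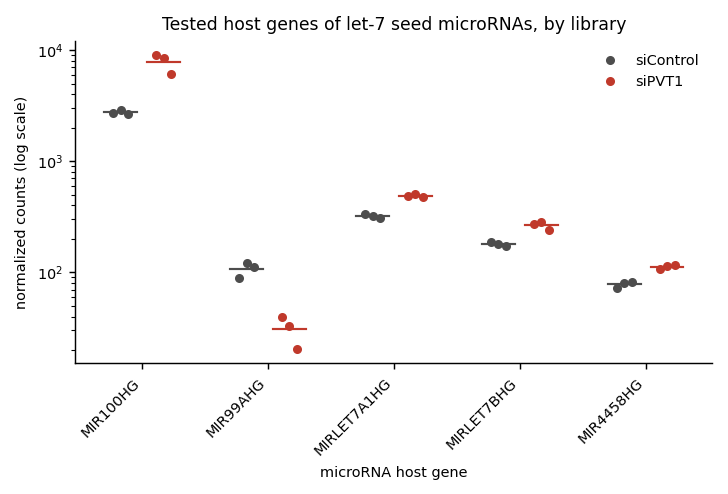
Normalized counts (log axis) of the 5 tested hosts of let-7 seed microRNAs by library, 3 siControl and 3 siPVT1, with group means as lines. In MIR99AHG the siPVT1 points (20.5 to 39.8) lie below siControl (89.0 to 122), while in the other 4 hosts they lie above.

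MIR100HG spans 122028325 to 122556721 on the minus strand of chromosome 11, and MIR99AHG 15928296 to 16646364 on the plus strand of chromosome 21, with 107 and 258 annotated transcripts. Inside MIR100HG, BLID, a protein-coding gene on the same strand that shares 83 exon bases with it, rose (log2 fold change 1.97, SE 0.530, adjusted p = 0.0131 in edgeR). BLID was low, with 12.3, 46.4 and 12.9 normalized counts in siControl and 128, 96.2 and 54.1 in siPVT1. Reads in the shared stretch could come from either gene. The flanking SORL1 also rose (1.32, adjusted p = 0.000906), and UBASH3B on the other side had 0.07 (adjusted p = 0.403). USP25, before MIR99AHG, had a log2 fold change of 0.44 (adjusted p = 0.000887), opposite in sign to the host.

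MIR17HG was the other host that fell. Its cluster is a known target of MYC and promotes proliferation in several cancers. It had 193, 215 and 209 normalized counts in siControl and 81.9, 102 and 113 in siPVT1, without overlap. The mean fell from 205 ± 11.0 to 98.8 ± 15.7 (SD, n = 3), a log2 fold change of −1.05 (SE 0.137, adjusted p = 0.000327 in edgeR). It lay just past the fold threshold, and without siPVT1 replicate 1 the log2 fold change was −0.93.

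Hosts between the thresholds had smaller shifts in both directions. MIR222HG, host of miR-221 and miR-222, which are known to repress the cell cycle inhibitor CDKN1B, had 1090.2, 1175 and 1118 normalized counts in siControl and 1721, 1615 and 1338 in siPVT1 (log2 fold change 0.47, adjusted p = 0.00383 in edgeR). MIR1915HG had 79.6, 90.8 and 89.5 and then 132, 134 and 129 (0.60, adjusted p = 0.00297). Both groups were tight in MIR1915HG, while siPVT1 replicate 3 of MIR222HG lay nearest to siControl.

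On the lower side, MIR22HG, a lncRNA known to respond to cell stress, had 1584, 1561 and 1606 normalized counts in siControl and 943, 1170.5 and 1377 in siPVT1 (log2 fold change −0.44, adjusted p = 0.0155 in edgeR). Its siPVT1 libraries spread widely and all lay below siControl. MIR137HG, host of a microRNA known from neurons, had 190.4, 197 and 185 and then 146, 157 and 143 (−0.36, adjusted p = 0.0131). Without a filter its adjusted p was 0.0513 in edgeR. It shares 494 exon bases on the same strand with DPYD, which was higher (0.53, adjusted p = 0.00971 in edgeR). Reads in that stretch could come from either gene. MIR4453HG had 92.8, 117 and 115 and then 81.9, 69.9 and 88.6 (−0.43, adjusted p = 0.0455), the weakest of the 21, and DESeq2 gave an adjusted p of 0.0893 for it.

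MIR4435-2HG was the most abundant host by counts in siControl, with 3942, 4515 and 3841 normalized counts there and 2918, 2808 and 3008 in siPVT1 (log2 fold change −0.49, SE 0.0736, adjusted p = 0.000683 in edgeR). Its value is uncertain, because CYTOR is a near-identical copy and the authors' counting divides such reads by estimation. CYTOR went from 2195 ± 69.7 to 1548 ± 75.2 normalized counts (SD, n = 3), a log2 fold change of −0.50 (adjusted p = 0.000227). BCL2L11, which shares 727 exon bases with MIR4435-2HG on the opposite strand, had −0.34 (adjusted p = 0.00810).

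The other 8 tested hosts did not pass the adjusted p. MIR34AHG, host of the p53-induced miR-34a, had 699, 722 and 672 normalized counts in siControl and 935, 766 and 652 in siPVT1 (log2 fold change 0.17, SE 0.126, adjusted p = 0.287 in edgeR). MIR155HG, whose microRNA is known from activated immune cells, had 105, 119.7 and 118 and then 132, 108 and 102 (−0.01, SE 0.141, adjusted p = 0.966). In both, the siPVT1 libraries lay on either side of siControl. The remaining 6 had means under 50 normalized counts, and their log2 fold changes were 0.77 for MIR646HG (adjusted p = 0.139), 0.65 for MIR924HG (0.0793), −0.03 for MIR181A1HG (0.975), −0.17 for MIR663AHG (0.855), −0.69 for MIR762HG (0.0983) and −0.71 for MIR181A2HG (0.0752). MIR762HG and MIR181A2HG did not overlap between groups, with siPVT1 lower. MIR181A1HG ranged from 7.58 to 34.0 within siControl alone, and MIR646HG was at 47.6, 26.2 and 15.9 in siPVT1.

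The 10 hosts that were not tested reached 4 to 8 counts in their highest library. The summed counts over 3 libraries were 20 in siControl and 11 in siPVT1 for MIR3659HG, 16 and 6 for MIR5689HG, 13 and 4 for MIR31HG and 6 and 11 for MIR4422HG. MIR194-2HG, MIR2052HG, MIR2117HG, MIR3150BHG, MIR4432HG and MIR4500HG had between 4 and 10 summed counts in siControl and between 1 and 5 in siPVT1. All of the untested hosts but MIR4422HG thus had fewer summed counts in siPVT1, at levels near the floor. In the edgeR fit without a filter, 0 of the 10 passed the adjusted p and 0 had an unadjusted p under 0.05. The lowest adjusted p was 0.202, for MIR2052HG (log2 fold change −2.01, SE 1.11, unadjusted p = 0.0851 in edgeR). MIR5689HG had 7, 4 and 5 counts in siControl and 2, 2 and 2 in siPVT1, without overlap (adjusted p = 0.216).

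Across hosts, siPVT1 replicate 3 was the least shifted library. Of the 21 hosts at an adjusted p under 0.05, replicate 3 was nearest to siControl in 16 (76.2%), replicate 1 in 3 and replicate 2 in 2. Over 11099 genes at that threshold these shares were 59.4%, 24.3% and 16.3%, so the order was shared by other genes. PVT1 itself was at its lowest in replicate 3.

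Levels between genes were compared per kilobase of annotated exon, in CPM per kilobase. In siControl the highest were MIR22HG (16.4 ± 0.231), MIR222HG (12.6 ± 0.486) and MIR3142HG (8.02 ± 0.294), followed by MIR4435-2HG (3.85 ± 0.341), MIR100HG (2.95 ± 0.131) and MIR503HG (2.80 ± 0.0580). In siPVT1 the order was MIR3142HG (34.8 ± 2.50), MIR222HG (17.5 ± 2.22), MIR22HG (12.0 ± 2.25) and MIR210HG (11.2 ± 0.812), then MIR100HG (8.40 ± 1.61) and MIR503HG (7.50 ± 1.15). MIR22HG and MIR210HG differed there by less than the spread of MIR22HG, and MIR100HG and MIR503HG by less than the spread of either. MIR210HG stood at place 22 of 29 in siControl and place 4 in siPVT1. Per kilobase of the longest transcript, MIR222HG led in siControl and MIR100HG in siPVT1, so the order depends on the length used.

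The place of the hairpins varied between hosts. Of 64 hairpins, 31 lay in an exon of at least 1 transcript, 4 partly so and 29 outside exons. Among the 29 tested hosts, 16 had a hairpin in an exon (5 rose and 2 fell), 3 had one partly in an exon (1 rose) and 10 had all hairpins outside exons (4 rose and 0 fell). All 64 hairpins have an entry of their own in the table, but 10 had any count and 2 went over 3 counts. MIR221 had 2, 4 and 6 counts in siControl and 5, 6 and 8 in siPVT1, and MIR663A had 4, 13 and 4 and then 6, 9 and 4. The summed normalized counts of all 64 were 12.1 on average in siControl and 14.6 in siPVT1 (two-sided exact permutation test, p = 0.5, n = 3 against 3, where the smallest possible is 0.1). Most of these entries were too low to compare between groups.

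The machinery that cuts and loads microRNAs moved in parts. Of 24 genes listed, 22 were tested, LIN28A and LIN28B being too low, and 1 rose and 0 fell past both thresholds (4.55%, beside 21.4% of all genes). By the adjusted p alone 9 were higher and 8 lower, or 77.3%, beside 58.4%. AGO4, an Argonaute, was the 1 that rose, with 689, 644 and 604 normalized counts in siControl and 1723, 1821 and 1579 in siPVT1 (log2 fold change 1.40, SE 0.0811, adjusted p = 6.22e-06 in edgeR). AGO2, the Argonaute that cuts its targets, was higher by 0.54 (adjusted p = 3.95e-05), and ZSWIM8, part of a ligase that removes microRNAs bound to certain targets, by 0.83 (adjusted p = 2.92e-05).

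Genes of the early steps moved in both directions, none past the fold threshold. DROSHA had 2998, 2931 and 2919 normalized counts in siControl and 1461, 1635 and 2011 in siPVT1 (log2 fold change −0.79, SE 0.109, adjusted p = 0.000445 in edgeR). Its partner DGCR8 had −0.52 (adjusted p = 0.0499) and the exporter XPO5 −0.69 (adjusted p = 0.000620), while DICER1 had −0.06 (adjusted p = 0.395). Of the helicases that assist DROSHA, DDX17 was higher by 0.50 (adjusted p = 0.000220) and DDX5 had −0.10 (adjusted p = 0.239). KHSRP, which aids the cutting of some precursors including let-7, had −0.78 (adjusted p = 0.000290), and DIS3L2, the nuclease for tailed let-7 precursors, −0.70 (adjusted p = 0.000106). In all 3 siPVT1 libraries DROSHA lay below all 3 of siControl.

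**Figure D4:**
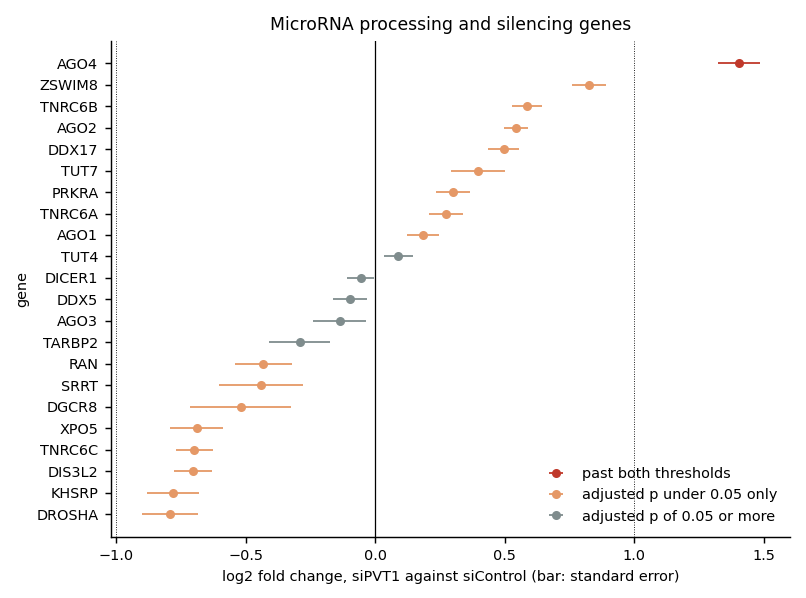
Log2 fold change, siPVT1 against siControl, of 22 tested genes for making, loading and removing microRNAs (points, with bars of 1 standard error, 3 libraries per group); dotted lines mark −1 and 1. AGO4 at 1.40 is the 1 gene past both thresholds, and DROSHA at −0.79 is the lowest.

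Protein-coding genes that carry microRNAs in their introns gave a smaller share than the lncRNA hosts. Of 42 tested, 5 rose and 1 fell (14.3%, beside 21.4% of all genes), with a median log2 fold change of 0.27. SREBF1 and SREBF2, regulators of sterol and lipid synthesis that hold miR-33b and miR-33a, both rose by 1.38 (SEs 0.0621 and 0.0691, adjusted p = 2.16e-06 and 3.35e-06 in edgeR). EGFL7, host of miR-126, rose by 1.77 (adjusted p = 2.01e-05), and the phosphatase genes CTDSP2 and CTDSPL, hosts of miR-26 family members, by 1.08 and 1.02 (adjusted p = 1.83e-05 and 0.000189). WWP2, a ubiquitin ligase that holds miR-140, fell by 1.15 (adjusted p = 4.50e-06).

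Known targets of 2 of the microRNA groups were counted beside their hosts. Of 17 miR-210 targets, 1 rose and 0 fell past both thresholds (5.88%, beside 21.4% of all genes). By the adjusted p alone 8 were higher and 3 lower (64.7%, beside 58.4%), with a median log2 fold change of 0.18. EFNA3, an ephrin that miR-210 is known to repress, was the 1 that rose, with 7.58, 9.29 and 11.1 normalized counts in siControl and 125, 126 and 102 in siPVT1 (log2 fold change 3.64, SE 0.215, adjusted p = 6.90e-06 in edgeR). COX10, needed to assemble the respiratory chain, had −0.92 (adjusted p = 1.84e-05 in edgeR). SDHD, part of that chain, had −0.50 (adjusted p = 0.000211), and the iron-sulfur scaffold ISCU 0.18 (adjusted p = 0.272). Of 15 targets of the MIR17HG cluster, 1 rose (ITGA5, an integrin, 1.02, adjusted p = 6.33e-05) and 1 fell (THBS1, an inhibitor of vessel growth, −1.77, adjusted p = 2.79e-06), which is 13.3% beside 21.4% of all genes, with a median of 0.12. By the adjusted p alone 5 were higher and 2 lower (46.7%, beside 58.4%).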

How the data were processed

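RNA of 6 SK-OV3 libraries (3 siControl and 3 siPVT1, 48 h after transfection) was analysed. Libraries were made with a poly(A) mRNA kit and read as 75-base single ends. The authors aligned reads to GENCODE v35 (GRCh38.p13) with STAR and deposited unnormalized estimated counts from Salmon, rounded to whole numbers and keyed by symbol. The submitters' processing notes name bcl2fastq 2.20.0, STAR 2.7.3a, Salmon 0.14.1 and DESeq2 1.28.1.

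From these, edgeR 4.0.16 (R 4.3.3) was fitted to the whole table with TMM scaling and its quasi-likelihood test, with the siRNA as the only term. The 19008 genes reaching 5 normalized counts in 3 or more libraries entered the fit, and p-values were adjusted over all of them by Benjamini-Hochberg. The standard error was taken as the size of the log2 fold change over the square root of F. It is not a sampling error of the estimate. In genes low in 1 group it can be smaller than the counting error, as it was for MIR210HG. Calls needed an adjusted p under 0.05 and a change of 1 or more on the log2 scale. Coordinates are from GENCODE v44, a later release of the same build, and sequences from RefSeq (GRCh38.p14). Tests were checked on simulated data. Intervals and floors cover counting error only.

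The members and gene lists were chosen with earlier results of these data known. The genes named were the hosts and, where a result turns on them, the protein-coding neighbours of the 12 hosts past both thresholds. List genes past both thresholds (up to 5 per direction) and list genes needed as background were also named. DPYD was added for the exon bases that it shares with a host. Single values of 2 other genes are not reported here. Alternatives were DESeq2 1.42.0, its size factors in edgeR, total-count scaling, no filter, filterByExpr, the replicate number as a block, and each library left out.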

Additional observations from a re-analysis of the deposited data

How the results depend on the processing

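Of the 12 host genes past both thresholds, 8 kept their call in every alternative that tested them. MIR378D2HG was tested in 8 alternatives only. It dropped out of the test whenever a siPVT1 library was left out, so these settings could not challenge its call. DESeq2, total-count scaling, no filter, filterByExpr and the replicate block each gave 10 host genes. With 1 library left out, 7 to 12 host genes passed, 6 to 10 higher and 1 to 2 lower. The fewest were 7 without siPVT1 replicate 1, where MIR17HG was at −0.93, and without siPVT1 replicate 2 there were 8, of which 6 higher. MIR600HG (0.87 to 1.09), MIR3681HG and MIR3936HG lost calls. Over all genes, 4076 passed, and 3515 to 4533 under the alternatives. Total-count scaling moved the median of all genes (log2) from −0.01 to −0.15 and the higher share of calls from 54.0% to 43.8%. It also gave 3 higher protein-coding hosts in place of 5, 2 miR-210 targets with 1 lower, and 1 target of the MIR17HG cluster with 0 higher. Leaving out a library gave 1 to 2 targets of that cluster and 0 to 1 higher, the fewest without siControl replicate 1. The causes were not tested.

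Signs turned in hosts that did not pass the test. With 1 library left out, MIR155HG ranged from −0.12 to 0.076, MIR181A1HG from −0.51 to 0.80 and MIR663AHG from −0.53 to 0.24. MIR155HG was at 0.0061 without a filter and at 0.013, 0.0052, 0.034 and 0.076 without siControl replicates 2 and 3 and siPVT1 replicates 2 and 3 in turn. MIR181A1HG was at 0.013 with the replicate block, 0.80 without siControl replicate 2 and 0.39 without siPVT1 replicate 3, and MIR663AHG was at 0.24 without siPVT1 replicate 2. Of 339 host values under alternatives, 302 kept their side, 23 lost and 5 gained the adjusted p, and 9 changed sign. MIR646HG passed both thresholds without siPVT1 replicate 3 (1.09, adjusted p = 0.0149 in edgeR). The replicate numbers did not pair the libraries, with correlations of deviations from group means of −0.041, 0.037 and 0.0032 for numbers 1, 2 and 3.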
